A study of Rattus norvegicus with 4 samples.

Results

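The genes described here encode proteins of the neurite's microtubules and of the growth cone. They were chosen by name, with earlier results of these data known: Tubb3, Map2, Map1b, Mapt, Stmn2, Stmn3, Dcx, Gap43, Crmp1 and Dpysl3. Non-control probes on the arrays were assigned to them through RefSeq accessions, and 8 of the 10 genes had a probe, with 10 probes in all. Map1b and Stmn3 had no probe named here and were not analysed. Of the 8 genes, 7 were tested, against 25356 genes tested in all (from 36934 distinct gene names or identifiers). Of the 25356, 6316 had a gene symbol, and the rest were counted by their identifiers. Whether several identifiers stand for the same gene was not analysed. Shares and medians over all genes thus rest mostly on entries without a symbol. Gap43 was not well above background on any array and was not tested.

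The arrays measured total RNA of PC12, a rat pheochromocytoma line, that is, cells of a chromaffin tumour of the adrenal medulla. The line is known to make no working MAX, the protein with which MYC proteins pair on DNA. In the MAX vector group the cells carried a plasmid that codes for MAX, and in the empty vector group a plasmid without it. Both lines were nucleofected and then selected with a drug the labels call E418, and both were harvested once at passage 8 and once at passage 13. That makes 2 arrays, each with 1 colour, in either group. Each group is thus 1 transfected line, and a p-value here measures the spread between samples of a line and not between transfections. The labels do not say which replicate number is which passage.

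A neurite is held up by bundles of microtubules, polymers of alpha and beta tubulin. Microtubule-associated proteins such as MAP2, tau, MAP1B and doublecortin bind along the polymer and stabilise or bundle it, while stathmins bind free tubulin and promote disassembly. At the tip, the growth cone carries the membrane protein GAP-43 and the collapsin response mediator proteins, cytosolic proteins that bind tubulin and relay guidance signals. PC12 cells are widely used for these genes because nerve growth factor makes them extend neurites. No nerve growth factor treatment is named in the labels of these samples.

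Dcx, Tubb3 and Dpysl3 are shown by sequence, as the members that have an entry in the RefSeq promoter table of build GRCr8 and a 95% interval of the fold change below 0, a choice made after their values were seen. Crmp1, with lower signals on both MAX vector arrays and an interval that includes 0, has an entry that is not printed. Each line gives the 250 bases before a gene's start, 5′ to 3′ on the gene's strand, and Dpysl3 has 2 starts in the table. Capitals mark GGGCGG or its complement CCGCCC, the core of a GC box, and TATAAA or its complement TTTATA. The windows lie at chrX:112304162-112304411, minus strand (Dcx), chr19:68365437-68365686, plus strand (Tubb3), chr18:35731153-35731402, minus strand (Dpysl3, upstream start) and chr18:35688512-35688761, minus strand (Dpysl3, downstream start).
Dcx: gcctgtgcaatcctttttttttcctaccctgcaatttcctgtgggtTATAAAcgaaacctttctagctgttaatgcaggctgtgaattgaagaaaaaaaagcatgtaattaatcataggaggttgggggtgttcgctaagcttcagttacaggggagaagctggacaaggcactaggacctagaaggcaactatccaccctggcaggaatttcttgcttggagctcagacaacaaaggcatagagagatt
Tubb3: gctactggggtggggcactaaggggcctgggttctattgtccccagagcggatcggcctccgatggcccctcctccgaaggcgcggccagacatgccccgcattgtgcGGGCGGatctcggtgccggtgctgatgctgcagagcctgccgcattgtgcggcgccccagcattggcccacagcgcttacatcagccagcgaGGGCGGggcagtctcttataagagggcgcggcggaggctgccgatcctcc
Dpysl3 upstream start: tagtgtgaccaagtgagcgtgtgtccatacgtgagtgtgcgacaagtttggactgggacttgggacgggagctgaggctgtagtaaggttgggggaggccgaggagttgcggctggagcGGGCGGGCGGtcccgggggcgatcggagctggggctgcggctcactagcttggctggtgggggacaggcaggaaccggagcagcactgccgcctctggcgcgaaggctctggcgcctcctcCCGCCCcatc
Dpysl3 downstream start: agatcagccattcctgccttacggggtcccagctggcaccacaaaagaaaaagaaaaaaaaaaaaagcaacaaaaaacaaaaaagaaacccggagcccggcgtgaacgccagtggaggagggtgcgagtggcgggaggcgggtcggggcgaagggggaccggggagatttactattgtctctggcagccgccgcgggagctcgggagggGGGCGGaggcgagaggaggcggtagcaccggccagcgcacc

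The hexamer CACGTG, the E-box that MYC and MAX dimers are known to bind, was in 0 of the 8 windows of the 7 members in the table (Tubb3, Map2, Map1b, Stmn3, Dcx, Crmp1 and Dpysl3). It was in 5.59% of all 33469 windows of that length. CACGTG reads the same on both strands, and no match says only that these letters are not in these windows. GGGCGG or CCGCCC was in 5 of the 8 windows, those of Crmp1, Dpysl3, Stmn3 and Tubb3, against 30.5% of all windows, and TATAAA or TTTATA in those of Dcx and Map1b, against 12.9%. The windows differed in base composition: 32% of the bases were G or C for Map2, 44% for Dcx, 68% for Tubb3 and 76.4% for Crmp1, beside a median of 51.2% over all windows.

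Across the 4 arrays, 64.46% to 71.56% of the 40923 probes used were well above background and 0 spots were saturated. MAX vector replicate 1 was the only array on slide 2 and had the lowest share. The arrays' Pearson correlation over these probes was 0.9887 within the MAX vector group, 0.9905 within the empty vector group and 0.9839 to 0.9882 between the groups. The median absolute log2 difference was 0.2 within the MAX vector group, 0.18 within the empty vector group and 0.17 to 0.31 between the groups. The lowest, 0.17, was between replicate 2 of either group, so by this measure the replicates were not the closest pairs. The Max probe itself was well above background on 0 of the 4 arrays, so it did not check the labels. The number of arrays limits the precision.

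With the MAX vector, signals of Dcx, Stmn2, Tubb3, Dpysl3 and Crmp1 were lower on both arrays than on either empty vector array. Those of Mapt and of the brighter Map2 probe overlapped between the groups, while the dimmer Map2 probe was lower on both MAX vector arrays. None of these differences passed an adjusted p of 0.05 in limma: 0 of the 7 tested members were called, beside 0.840% of all genes tested (0.264% lower and 0.576% higher). Before adjustment 4 members had a p under 0.05, all lower, beside 16.1% of all genes. In the lower direction alone, 8.21% of all genes had such a p. Groups without overlap in the lower direction were found for 5 of the 7 members, beside 26.0% of all genes; in the higher direction it was 0 members, beside 24.2%. The median log2 fold change was -0.48 over the 7 members and -0.02 over all genes. Since the members were chosen with earlier results of these data known, these counts and medians only describe them. The test could find few changes of this size: in simulated data on 25356 genes, 1.19% of genes changed 2-fold were recovered and 65.1% of genes changed 4-fold. In these bulk samples, fewer cells of a type and less RNA per cell cannot be told apart.

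**Figure D1:**
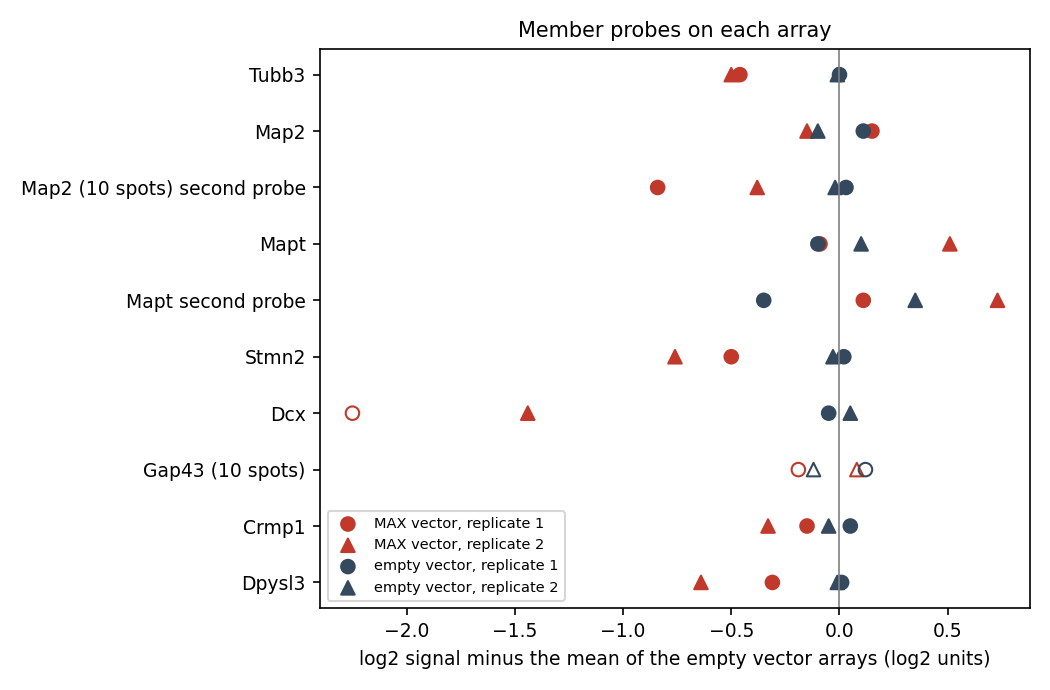
Log2 signal of every member probe on each array, minus the mean of the 2 empty vector arrays (x axis, log2 units); red points are MAX vector arrays, dark points empty vector arrays, and an open point was not well above background. Dcx, Stmn2, Tubb3, Dpysl3 and Crmp1 have both red points left of both dark points.

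Tubb3 encodes the beta tubulin isotype known as the neuronal one. On a log2 scale with the 75th percentile of each array at 0, which is the scale of all levels given here, its signals were 0.24 and 0.20 on the MAX vector arrays, against 0.70 and 0.69 on the empty vector arrays. The groups did not overlap, and the replicates of each group lay within 0.03 of each other. The MAX vector signal was 71.9% of the empty vector signal, a log2 fold change of -0.48 ± 0.08 (SE, n = 2 arrays per group; 95% interval -0.71 to -0.24), with an adjusted p of 0.13 in limma. With the MAX vector replicate on slide 1 alone, the change was -0.49 (adjusted p = 0.229 in limma), close to the value over all 4 arrays. A fit on slide 1 alone holds 1 MAX vector array, which is assumed to vary like the empty vector arrays, so its p, here and for the genes that follow, holds no spread of the MAX vector group. Beta tubulins are close paralogs, and which of them the probe also detects was not analysed here.

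Dcx encodes doublecortin, a microtubule-binding protein of migrating and newly formed neurons, and had the lowest fold change of the 7 members. Its log2 signals were -6.25 and -5.44 on the MAX vector arrays, against -4.05 and -3.95 on the empty vector arrays. All 4 signals were dim, and in MAX vector replicate 1 the probe was not well above background, so 1 of the 2 MAX vector signals behind the fitted value was near background. In processed signal units these were 7.77 and 15.3 with the MAX vector, against 42.4 and 39.6 with the empty vector. The groups were separated by 1.40 log2 units, more than the 0.80 between the MAX vector replicates and the 0.10 between the empty vector replicates.

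The fitted log2 fold change of Dcx was -1.85 ± 0.30 (95% interval -2.68 to -1.01), with an adjusted p of 0.116 in limma. Dcx entered the test through the empty vector group, where the probe was well above background on both arrays. The call depended on the setting. Dcx passed with normexp, a background correction that adds 50 signal units and so draws dim probes together (-0.53, adjusted p = 0.0486 in limma), and with quantile normalization (-1.81, 0.0458) or median scaling (-1.82, 0.0168). Without MAX vector replicate 2 the value was -2.25 with an adjusted p of 0.049 in limma, but the 1 MAX vector array left is that on which Dcx was not well above background, and the spread came from the empty vector arrays alone, so this p is not read as a call. On slide 1 alone, where the MAX vector array had Dcx well above background, the change was -1.45 (adjusted p = 0.0936 in limma).

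Map2 encodes the microtubule-associated protein of dendrites and had 2 probes that gave different values. The brighter probe, with 1 spot, had -2.06 and -2.36 on the MAX vector arrays, against -2.10 and -2.31 on the empty vector arrays. The groups overlapped, with a log2 fold change of 0.00 ± 0.15 (95% interval -0.43 to 0.42; adjusted p = 0.991 in limma). The sign of the gene's value turned in 3 of 13 alternatives. The lowest value, -0.31, came from averaging the brighter probe with the dimmer one described next. With each array left out in turn, the value ran from -0.15 to 0.14.

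The dimmer Map2 probe is printed 10 times on each array. Its means over the spots kept were -5.27 ± 0.26 and -4.81 ± 0.16 on the MAX vector arrays (SD over 10 and 8 spots), against -4.40 ± 0.09 and -4.45 ± 0.12 on the empty vector arrays (6 and 8 spots). Both MAX vector means lay below both empty vector means, though single spots overlapped: the highest spot of MAX vector replicate 2 was at -4.60 and the lowest of empty vector replicate 2 at -4.62. On MAX vector replicate 1, 8 of the 10 spots were well above background, and on the other arrays all spots kept were. The log2 fold change of this probe was -0.61 ± 0.18 (95% interval -1.13 to -0.10), with an adjusted p of 0.25 in limma over all probes. Spots of 1 array share its RNA and are not replicates of a condition. Which Map2 transcripts each probe detects was not analysed here.

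**Figure D2:**
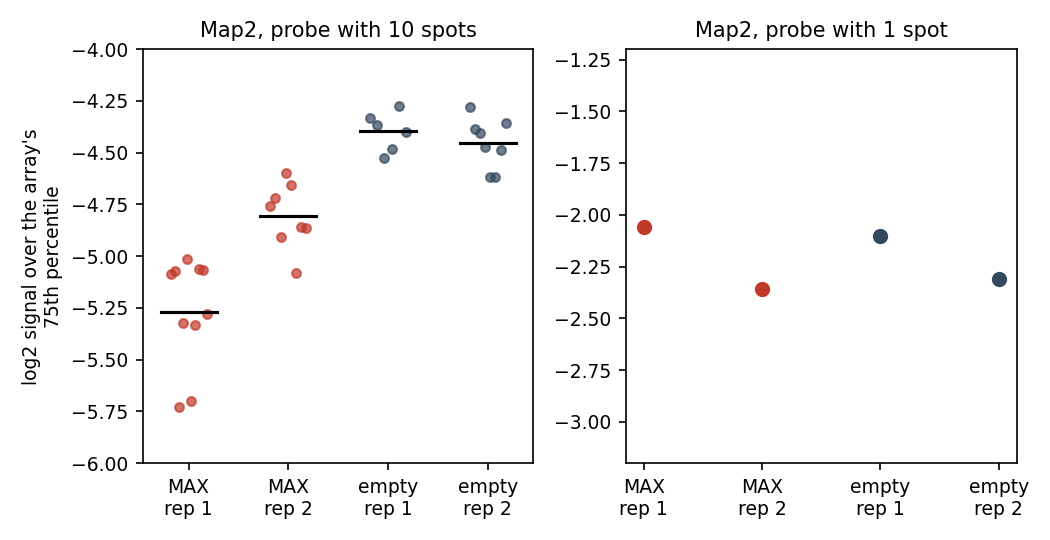
Log2 signal over the array's 75th percentile (y axis) of the 2 Map2 probes on each array (x axis). Left, each point is a spot of the probe printed 10 times, flagged spots left out, and the line is the array's mean (-5.27 and -4.81 with the MAX vector, -4.40 and -4.45 with the empty vector); right, the probe with 1 spot, on which the groups overlap.

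Mapt encodes tau, the microtubule-associated protein of axons. Its brighter probe had -3.41 and -2.81 on the MAX vector arrays, against -3.42 and -3.22 on the empty vector arrays. MAX vector replicate 2 was the highest of the 4 and the groups overlapped. The log2 fold change was 0.21 ± 0.24 (95% interval -0.46 to 0.88), with an adjusted p of 0.706 in limma. Without MAX vector replicate 2 it was -0.09, and without replicate 1, on slide 1 alone, 0.51 (adjusted p = 0.282 in limma). The dimmer Mapt probe had -5.17 and -4.55 on the MAX vector arrays, against -5.63 and -4.93 on the empty vector arrays, and its groups overlapped too. Its log2 fold change was 0.42 ± 0.34 (adjusted p = 0.588 in limma over all probes).

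Stmn2 encodes stathmin-2, also known as SCG10, a membrane-bound stathmin of the growth cone. It had -1.92 and -2.18 on the MAX vector arrays, against -1.40 and -1.45 on the empty vector arrays. The groups did not overlap, and the gap between them, 0.47, was larger than the 0.26 between the MAX vector replicates. The MAX vector signal was 64.7% of the empty vector signal, a log2 fold change of -0.63 ± 0.13 (95% interval -0.98 to -0.28), with an adjusted p of 0.153 in limma. On slide 1 alone the change was -0.76 (0.158), and under 13 alternatives it ran from -0.76 to -0.44 and did not pass.

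Gap43 encodes GAP-43, the growth-associated protein of the growth cone membrane. Its probe, printed 10 times, had mean log2 signals of -7.20 and -6.93 on the MAX vector arrays, against -6.89 and -7.13 on the empty vector arrays. In processed signal units these were 4.01 and 5.47, against 5.91 and 4.36. The probe had 0 spots well above background on either MAX vector array, and 1 of 9 and 0 of 10 spots kept on the empty vector arrays. The values overlapped and lay below the lowest signal well above background on every array, so no fold change is given.

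Crmp1 and Dpysl3 encode collapsin response mediator proteins; Dpysl3 is also known as CRMP4. Crmp1 had -1.79 and -1.97 on the MAX vector arrays, against -1.59 and -1.69 on the empty vector arrays. The groups did not overlap, but the gap of 0.09 was smaller than the 0.19 between the MAX vector replicates. The log2 fold change was -0.24 ± 0.11 (95% interval -0.55 to 0.08; adjusted p = 0.409 in limma).

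Dpysl3 had 1.29 and 0.96 on the MAX vector arrays, against 1.61 and 1.59 on the empty vector arrays, with MAX vector replicate 2 the lowest. The groups did not overlap, while the gap of 0.30 was smaller than the 0.33 between the MAX vector replicates. The log2 fold change was -0.48 ± 0.14 (95% interval -0.88 to -0.07; adjusted p = 0.257 in limma), and it was -0.31 without MAX vector replicate 2 and -0.64 on slide 1 alone.

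**Figure D3:**
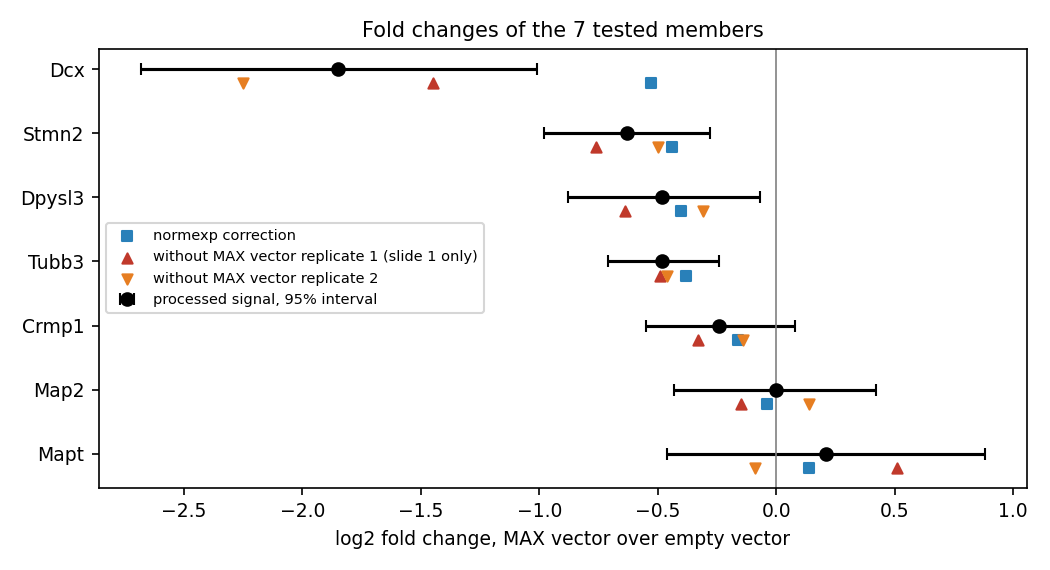
Log2 fold change, MAX vector over empty vector (x axis), of the 7 tested members; black points are fitted values with 95% intervals, and coloured points are values with normexp correction or without 1 MAX vector array. The intervals of Dcx, Stmn2, Dpysl3 and Tubb3 lie below 0, those of Crmp1, Map2 and Mapt include 0, and Dcx moves from -1.85 to -0.53 with normexp.

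The 2 MAX vector arrays did not shift the members alike. The dim probes of Dcx and Map2 were lower in MAX vector replicate 1, at -2.25 and -0.84 from the empty vector mean, than in replicate 2, at -1.45 and -0.38. Stmn2, Dpysl3 and Crmp1 were lower in replicate 2, at -0.76, -0.64 and -0.33 from that mean, than in replicate 1, at -0.50, -0.31 and -0.14. Both Mapt probes were lower in replicate 1, at -0.09 and 0.11, than in replicate 2, at 0.51 and 0.73. The brighter Map2 probe went the other way from the dim one, at 0.14 in replicate 1 and -0.15 in replicate 2. Tubb3 differed little, at -0.46 and -0.49. Over the 7 members, the median difference from the empty vector mean was -0.31 in MAX vector replicate 1 and -0.49 in replicate 2. Slide and replicate cannot be told apart for replicate 1.

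The other genes of the pathway came from 7 lists with 146 genes, of which 77 were tested. Of these, limma called 0, beside 0.840% of all genes. Before adjustment 20 had a p under 0.05 in limma, beside 16.1% of all genes. Of the 20, 5 were higher and 15 lower, beside 2010 and 2081 of all 25356 genes. The median log2 fold change of the 77 genes was -0.09, against -0.02 over all genes. All 9 tested tubulin genes had negative values, beside 13573 of all 25356 genes, with a median of -0.24 (0 called; 3 at an unadjusted p under 0.05). The 9 were negative with quantile normalization, median scaling and normexp too, while 8 of 9 were without empty vector replicate 1 (median -0.17) or without MAX vector replicate 2 (-0.16). Without MAX vector replicate 1 all 9 were negative, with a median of -0.40. Groups without overlap in the lower direction were found for 6 of the 9, beside 26.0% of all genes. Tuba8, an alpha tubulin gene, had -1.55 and -1.91 on the MAX vector arrays, against -0.32 and -0.86 on the empty vector arrays (-1.14 ± 0.25, adjusted p = 0.172). Tuba3a had -0.49 ± 0.09 (adjusted p = 0.133). Alpha tubulin genes are near copies of each other, so which of them gave a signal is uncertain.

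Among 12 microtubule-associated and severing genes the median was -0.06, and Tppp3 stood apart from the rest. Tppp3, which encodes a tubulin polymerization-promoting protein, had 0.49 and 0.46 on the MAX vector arrays, against 1.85 and 2.17 on the empty vector arrays. Its log2 fold change of -1.53 ± 0.14 had an adjusted p of 0.0516 in limma. It passed with normexp (-1.40, 3.46e-05), quantile normalization, median scaling or probes well above background on all 4 arrays. It did not pass with a gene's probes averaged, the replicate number as a block or no filter on dim probes. Over all genes, the settings in which Tppp3 passed called 799, 293 and 541 of 25356 and 515 of 22824, against 213. The replicate block and the fit without a filter called 0 of all genes. Map1a, which encodes a relative of MAP1B, had -0.40 ± 0.09 (adjusted p = 0.194), while Mapre3, an end-binding protein gene, and Katna1, a katanin subunit gene, had 0.21 ± 0.12 and 0.15 ± 0.09.

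The 16 microtubule motor and adaptor genes had a median of -0.01 and the 7 microtubule kinase genes 0.04. Dync1i1, a dynein intermediate chain gene, had 0.19 and 0.18 on the MAX vector arrays, against -0.56 and -0.72 on the empty vector arrays (0.83 ± 0.10, adjusted p = 0.0725 in limma). Kif2c, a kinesin gene, had -0.35 ± 0.10, Dctn1, a dynactin gene, 0.29 ± 0.10 and Kif5b, another kinesin gene, -0.19 ± 0.11. Of the kinases, Cdk5, a known kinase of tau and doublecortin, had 0.37 ± 0.09 (adjusted p = 0.19) and Mark1 -0.26 ± 0.09. Mark2 and Gsk3b had 0.08 ± 0.11 and -0.13 ± 0.09. The 7 tubulin folding and modification genes lay between -0.19 and 0.05, with Tbcb at -0.19 ± 0.09, Ttl, the tubulin tyrosine ligase gene, at -0.17 ± 0.09 and Tbca at 0.05 ± 0.11.

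Of the 2 other collapsin response mediator genes with a probe, Dpysl5 was tested. It had -3.29 and -3.24 on the MAX vector arrays, against -3.79 and -3.75 on the empty vector arrays, so its sign (0.50 ± 0.09, adjusted p = 0.125 in limma) was opposite to that of Crmp1 and Dpysl3. The 25 growth cone membrane and actin genes had a median of -0.12, with 17 negative and 8 positive values. Cap2, which encodes an actin-regulating cyclase-associated protein, had -3.10 and -3.27 with the MAX vector, against -2.20 and -2.02 with the empty vector (-1.07 ± 0.12, adjusted p = 0.0674). Rtn1, a reticulon gene, had -0.68 ± 0.11 (adjusted p = 0.109). Baiap2, which encodes a membrane-bending scaffold of actin protrusions, had 0.77 ± 0.11 (adjusted p = 0.0995) and Limk2, a kinase of cofilin, 0.23 ± 0.09. With normexp 7 of the 77 genes passed, beside 799 of all 25356 genes. Tppp3, Tuba8, Coro1a, Cap2 and Rtn1 were lower, and Baiap2 and Dync1i1 higher.

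**Figure D4:**
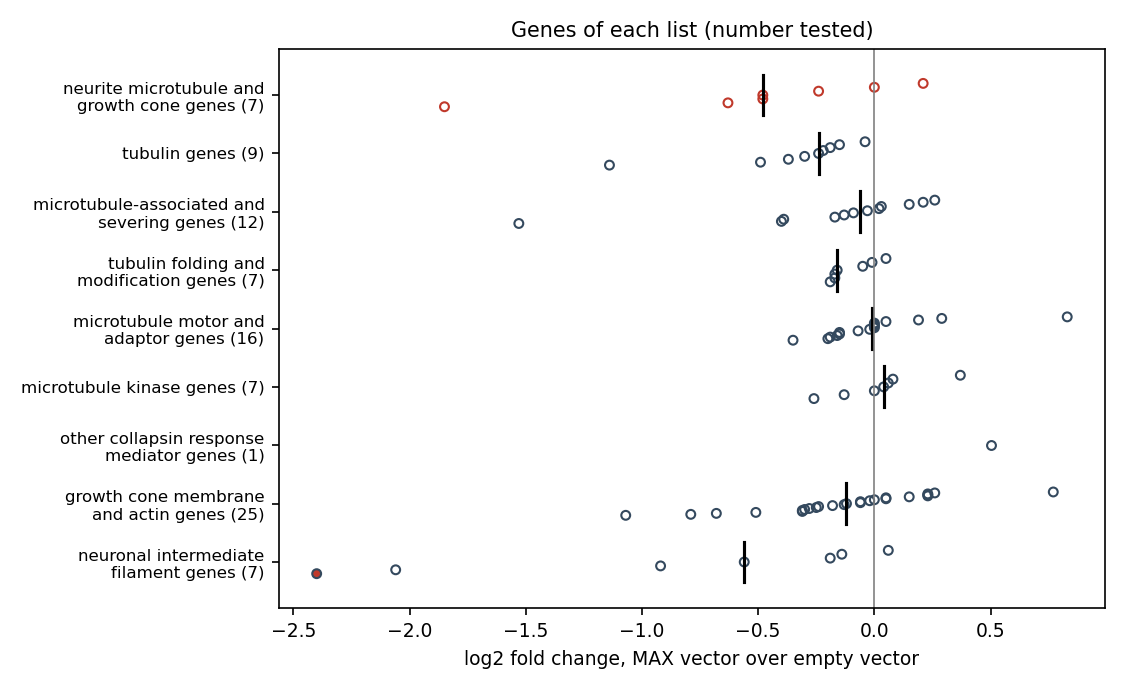
Log2 fold change, MAX vector over empty vector (x axis), of every tested gene of each list (rows, number tested in brackets); a filled point passed an adjusted p of 0.05 in limma and the black bar is the list's median. Medians run from -0.56 for the filament genes and -0.48 for the neurite microtubule and growth cone genes to 0.04 for the kinase genes and 0.50 for the 1 tested gene among the other collapsin response mediator genes, and 1 gene passed.

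The neuronal intermediate filament genes, the other cytoskeletal system of neurites, had a median log2 fold change of -0.56 over 7 tested genes, against -0.48 for the microtubule and growth cone genes. Of the 7, 1 passed, beside 0.840% of all genes: Nefm, a neurofilament subunit gene, had a log2 fold change of -2.40 ± 0.11 in limma (adjusted p = 0.0197). The count was 4 with normexp, 3 with quantile normalization, median scaling or probes well above background on all 4 arrays, and 2 without MAX vector replicate 2. It was 0 with the slide or the replicate number as a block, without a filter on dim probes, and without any 1 of the other 3 arrays. Over all 25356 genes, normexp called 799, quantile normalization 293 and median scaling 541. The filter for all 4 arrays called 515 of 22824 genes. The replicate block and the fit without a filter called 0 of all genes. Nefl had -2.06 ± 0.24, Prph -0.92 ± 0.09 and Nes -0.56 ± 0.10, with adjusted p from 0.0521 to 0.132 in limma. Nefh, Ina and Vim lay at -0.19, -0.14 and 0.06. Whether the gene groups differ was not tested.

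**Figure D5:**
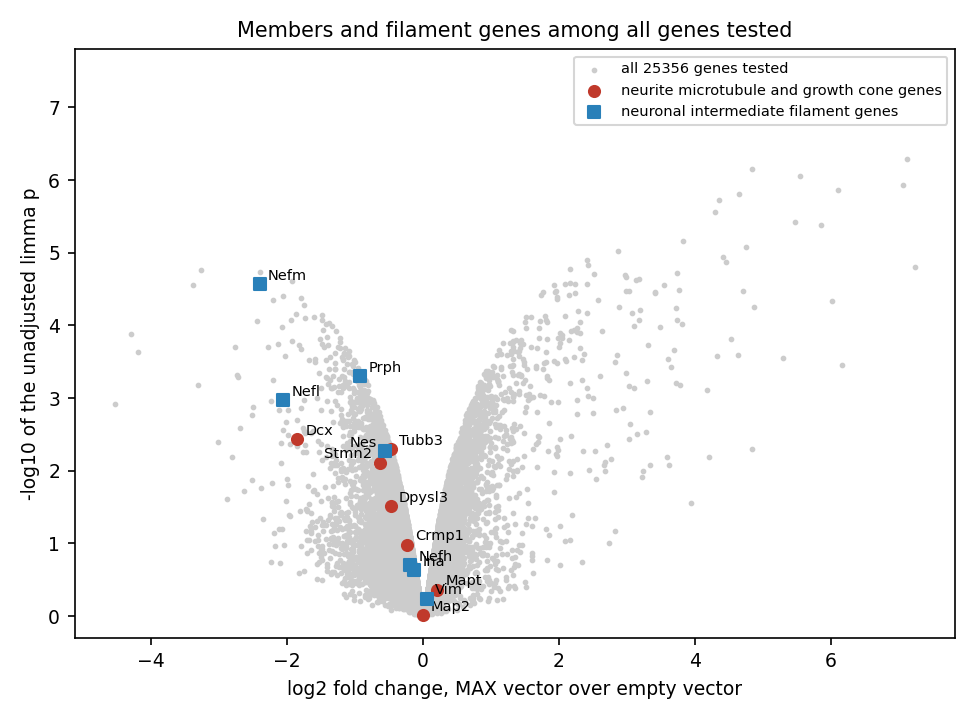
Unadjusted p of limma on a -log10 scale (y axis) against log2 fold change, MAX vector over empty vector (x axis), of all 25356 genes tested; red circles are the 7 tested microtubule and growth cone genes and blue squares the 7 filament genes. Dcx lies between Nefl and the other members, and Map2 lies at 0.

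Marker lists of cell types were summed on each array. Of the 11 chromaffin markers with a probe, 9 and 11 were well above background on the MAX vector arrays and 11 on each empty vector array; Th rose (adjusted p = 0.0203 in limma) and Ddc fell (0.0391). Of the 11, 0 were called with the slide or the replicate number as a block, without a filter on dim probes or without MAX vector replicate 1 or either empty vector array, and 1 without MAX vector replicate 2. Their summed signal, in units of each array's 75th percentile, was 11.7 and 11.6 with the MAX vector, against 20.3 and 20.4 with the empty vector. Ddc alone gave 7.75 and 7.68 of this with the MAX vector, against 16.3 and 16.4. The other chromaffin markers together gave 3.92 and 3.89, against 3.96 on each empty vector array. That remainder includes Th, whose log2 fold change was 2.15. Of the 11 markers, 9 had negative values, and their median log2 fold change was -0.35, against -0.02 over all genes. Lower without overlap were 7, beside 26.0% of all genes, and higher without overlap 1, beside 24.2%. The 9 epithelial markers summed to 28.2 and 28 with the MAX vector, against 11 and 11.5 with the empty vector. All 9 were higher without overlap, beside 24.2% of all genes, and 4 of them were called higher (Krt19, Krt15, Tp63 and Krt13), beside 0.576%. The count of called epithelial markers was 3 to 7 under the other scalings, probe rules and background corrections and the stricter filter, and 0 with the slide or the replicate number as a block, without a filter on dim probes or without any 1 array. Where 3 to 7 epithelial markers were called, calls over all 25356 genes ran from 205, with a gene's probes averaged, to 799, with normexp. The stricter filter called 515 of 22824 genes. The replicate block and the fit without a filter called 0 of all genes. The 7 macrophage markers with a probe summed to 9.11 and 8.87 with the MAX vector, against 4.89 and 5.63. Cd14 alone gave 8.40 and 7.65 of this with the MAX vector, against 4.23 and 4.88. Aif1 and Itgam were well above background on no array. The 8 fibroblast markers with a probe summed to 416 and 403, against 379 and 414, with Fap well above background on no array. S100a4 alone gave 273 and 251 of this with the MAX vector, against 241 and 260. Of the 7 fibroblast markers tested, 0 were called, beside 0.840% of all genes. Their log2 fold changes ran from -1.19 to 0.75, with a median of -0.16. Lower without overlap were 4, beside 26.0% of all genes, and higher without overlap 1, beside 24.2%. The 8 Schwann and glial markers summed to 0.525 and 0.666, against 0.581 and 0.648, and Erbb3, Fabp7 and S100b were well above background on no array. The part of these markers in the lower signals of Dcx, Stmn2, Tubb3 and Dpysl3 was not tested.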

How the data were processed

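Spot intensity came from the deposited scanner files, made with Feature Extraction 10.7.3.1 per the file headers (10.7 per the submitters' processing notes). Its processed signal has the background removed and spatial trends corrected on each array by itself, with no scaling from array to array, per the file headers. A second deposited table holds log2 values of the authors, whose differences between columns matched the values computed here (Pearson r = 1, disagreement with an SD of 4.3e-07 or less); its column medians were -0.033, -0.011, -0.005 and -0.006, its scale and direction are thus known and its centring is not.

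Control spots and spots with an outlier flag (89 to 140 on an array) were left out, the remaining spots of a probe were averaged as log2 processed signal, and the 75th percentile over probes was subtracted on each array. Tested were probes that 2 or more of the 4 arrays measured well above background, 1 per gene, that with the highest mean. A probe counted as well above background where no fewer of its kept spots were than were not, and probes with no spot left on an array were dropped. Symbols came from RefSeq accessions matched without versions to the GRCr8 gene table (10768 probes). The test was limma's (version 3.58.1, R 4.3.3) with lmFit, eBayes and 3.94 total degrees of freedom, adjusted by Benjamini-Hochberg over all genes with a threshold of 0.05; after a log2 fold change, ± gives its SE. Second probes of a gene took their values from a fit of all 28564 probes that passed the filter. The normexp alternative used the median spot signal and the median local background. Steps were tested on simulated data (200 changed genes in each of 5 runs). Members and lists were chosen with earlier results of these data known. Named were all 10 members with every probe, every called gene of the other lists, up to 2 genes per direction and list with the smallest p that were well above background on every array, and all filament genes; Coro1a was named after its value was seen.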

Additional observations from a re-analysis of the deposited data

How the results depend on the processing

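Over the whole array 213 genes were called (146 higher, 67 lower), against 799 with normexp (429 higher, 370 lower), 541 with median scaling, 515 with probes well above background on all 4 arrays, 8 with the slide as a block and 0 without a filter on dim probes (4033 at an unadjusted p under 0.05 in limma). Quantile normalization gave 293 called genes and the mean of a gene's probes 205. With every probe on its own, an alternative chosen after seeing the data, 274 of 28564 probes were called. With a block for the replicate number, 0 genes were called (3885 at an unadjusted p under 0.05 in limma), 0 members among them; the numbers share no known source, and the groups' replicate differences correlated at -0.018 across genes. Leaving out each array in turn gave 0 to 144 genes called, the 0 without either empty vector array (1963 and 2456 at an unadjusted p under 0.05 in limma) and 8 without MAX vector replicate 1, whose fit equals that with the slide as a block.

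Of the members, 0 were called, against 1, Dcx, with normexp, quantile normalization or median scaling, and 0 to 1 when each array was left out, the 1 being Dcx without MAX vector replicate 2; each such fit has a group of 1 array, assumed to vary like the other group. Dcx had no value with probes well above background on all 4 arrays, since that filter drops it. The members' median was -0.48, against -0.38 with normexp, -0.36 without the filter (with Gap43 added) and -0.36 with probes well above background on all 4 arrays (without Dcx). Leaving out each array gave -0.49 to -0.31. In the other lists of the pathway 0 genes were called, against 7 with normexp, 1 with quantile normalization, 2 with median scaling and 3 with probes well above background on all 4 arrays. The value of Map2 turned to 0.02 with median scaling, 0.10 without empty vector replicate 1 and 0.14 without MAX vector replicate 2, and that of Mapt to -0.09 without MAX vector replicate 2; the cause was not tested. Over the arrays left out in turn, Map2 ran from -0.15 to 0.14 and Mapt from -0.09 to 0.51. Signs of Tubb3, Stmn2, Dcx, Crmp1 and Dpysl3 turned under none of the alternatives run.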
